A study of Mus musculus with 14 samples.

Results

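The mitochondrial ribosomal protein genes are described here in mouse liver after an acute injury. They were taken as every gene row whose symbol begins with Mrpl or Mrps followed by a number. Of 55357 gene rows in the deposited files, 84 had such a symbol, 6 of these were pseudogenes and were left out, and 78 genes remained. In all, 51 encode proteins of the large subunit and 26 proteins of the small subunit. The last one, Mrps36, carries the name but encodes KGD4, a subunit of the 2-oxoglutarate dehydrogenase complex that is no longer counted as a ribosomal protein. Mrps30 and Mrps18a are named after the small subunit, but their proteins, mL65 and mL66, sit in the large one.

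The study compared a model group of 8 liver samples with a control group of 6. Model mice were given lipopolysaccharide (LPS, a bacterial endotoxin) at 10 µg/kg together with 300 mg/kg D-galactosamine (D-GalN), which depletes uridine nucleotides in hepatocytes and so blocks their transcription, into the peritoneal cavity, and control mice were given saline. All were C57BL/6 males of 5 to 6 weeks and 21.5 to 25 g, and livers were collected 24 h after the injection. The RNA was selected for poly(A) tails and sequenced. No label says that each sample is a separate animal, so p-values measure only the spread between these samples, which may be technical.

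Mitochondria keep their own ribosome, the mitoribosome, which makes the few hydrophobic subunits of the respiratory chain and ATP synthase that are encoded in mitochondrial DNA. Its RNAs come from mitochondrial DNA, whereas all of its proteins are encoded in the nucleus, made in the cytosol and imported. Some of these proteins descend from the bacterial ribosome (names beginning with u or b, such as uL10m or bL12m), and others were gained in mitochondria (names beginning with m). Hepatocytes are rich in mitochondria, and hepatocyte RNA dominates bulk liver RNA.

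Total counts in genes were between 10329469 and 16639972 in the model libraries and between 7914120 and 14463540 in the control libraries, of which 27753 to 39952 and 43296 to 63185 fell in the 78 genes. The 12 hepatocyte marker genes summed to 84100 to 98400 CPM (counts scaled to library size, with TMM factors) in the model and to 54300 to 80000 in the control libraries, and 4 of them were higher and 0 lower. All 11 testable neutrophil markers of 13 were higher in the model, where they summed to 1280 to 2900 CPM against 4.44 to 17.1 CPM. The defining neutrophil marker Ly6g had no count in any control library. Of the markers too low to test, Mpo averaged 0.27 CPM in the model and 0.0289 CPM in the control. Elane went the other way, at 0.115 and 0.325 CPM. All 8 monocyte and macrophage markers were higher too, summing to 472 to 735 CPM in the model and 129 to 334 CPM in the control libraries, as were all 5 cholangiocyte, all 5 erythroid and 4 of 6 tested T, NK and B cell markers. Of 6 endothelial markers 3 were higher and 2 lower, summing to 195 to 385 CPM in the model and 96.6 to 159 CPM in the control libraries. Of 6 stellate cell markers 3 were higher and 2 lower, summing to 302 to 607 and 162 to 211 CPM. Of 6 Kupffer cell markers 2 were higher and 3 lower. In bulk RNA, fewer cells of a type and less RNA per cell cannot be told apart. The part that differences in cell types have in the values below was not tested.

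Most of the genes had lower levels in the model livers, and none was called higher. Differences were tested with edgeR's quasi-likelihood test across 12915 genes with enough counts, and a gene was called at a Benjamini-Hochberg adjusted p under 0.05. Of the 78 genes, 77 passed the filter on low counts. Mrpl53 had 0 counts in all 14 libraries, which leaves it untested. It shares exons with another annotated gene on the same strand, and what that does to its count was not tested. Among the 77, 34 (44.2%) fell, against 21.3% of all genes tested. None rose, against 26.6% of all genes tested. At an unadjusted p under 0.05 the numbers were 45 lower and 0 higher, against 3227 lower and 3847 higher of all 12915 genes tested. DESeq2 and limma-voom also called 0 of the 77 higher.

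The shift was broad and moderate. The median log2 fold change was -0.64 for the 77 genes, with quartiles at -0.82 and -0.40, and 0.01 for all genes tested. In all, 75 of 77 fitted values (97.4%) were below 0, compared with 49.6% over all genes tested, and the values ran from -1.33 for Mrps26 to 0.25 for Mrpl33. Of the 34 genes that fell, 12 fell by at least 2-fold, which is 12 of the 77 tested. Over all 12915 genes tested, 1636 were called lower with a fall of at least 2-fold. The groups overlapped for nearly all of them: the CPM of every model library lay below that of every control library in 1 gene of 77, Mrpl43, while this held for 8.63% of all genes tested. The median standard error was 0.26.

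**Figure D1:**
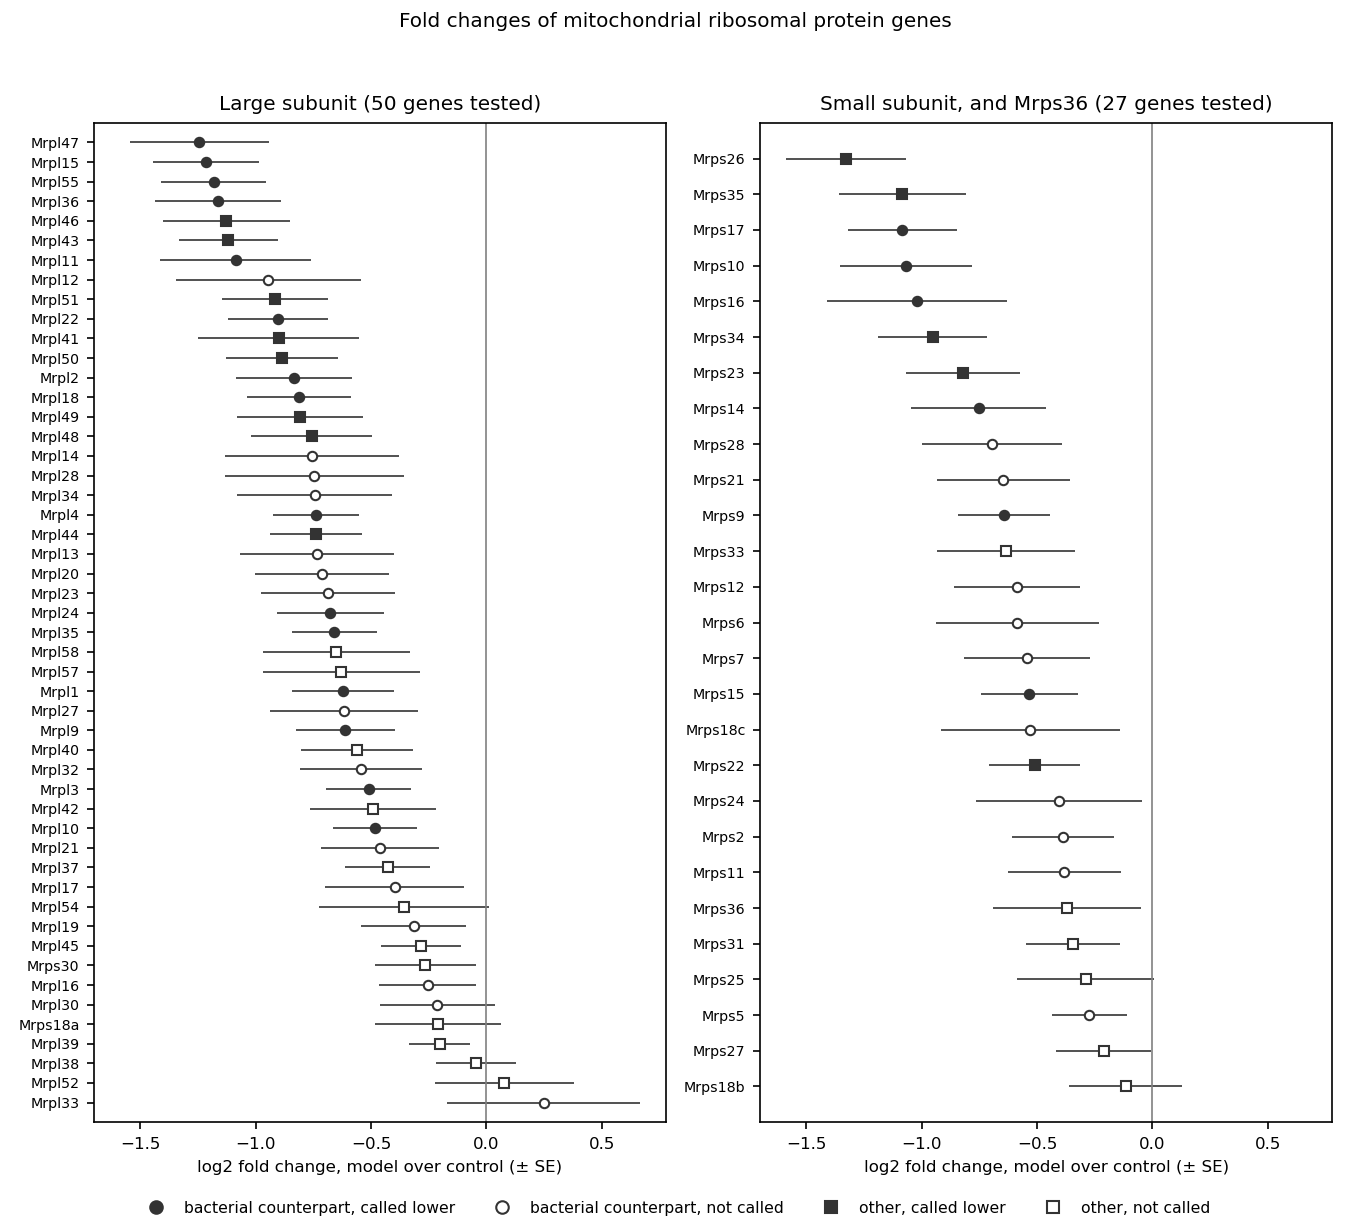
Log2 fold change, model over control, with its standard error for each of the 77 tested genes, large subunit on the left, small subunit and Mrps36 on the right. Filled symbols are the 34 called genes, circles are proteins with a bacterial counterpart and squares the others. All but Mrpl52 and Mrpl33 lie left of 0.

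The count depended on single libraries. It was 54 without control 6, where 21.5% of all genes tested were called lower. It was 23 without control 1 (19.0% of all genes tested) and 23 without control 2 (19.1%). With scaling by library totals it was 61, against 30.6% of all genes tested, and that scaling moved the median of all tested genes to -0.23.

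The libraries of a group differed widely in the level of these genes. In the model libraries 1 to 8 the sum was 3658, 1856, 3790, 2497, 3910, 2727, 1933 and 2282 CPM. In the control libraries 1 to 6 it was 6256, 5053, 3066, 6096, 3856 and 2369 CPM. Controls 1, 2 and 4 lay above every model library, whereas controls 3, 5 and 6 lay among them. Counted gene by gene, 71 to 75 of the 77 genes were above the control median in controls 1, 2 and 4, but 2 to 6 in controls 3, 5 and 6. In the model libraries this number was between 0 (model 2) and 21 (model 3). The lowest CPM of a gene fell most often in model 2 (31 genes) and model 7 (28 genes), and the highest in control 1 (39 genes) and control 4 (28 genes).

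The order of the libraries resembled that of a measure built without these genes. All tested genes were split into 5 quintiles by exonic length, and the measure is the median log2 deviation of the other genes in the shortest quintile minus that in the longest. This measure was highest in control 1 (1.09), control 4 (0.97) and control 2 (0.69), and lowest in model 7 (-1.17), control 6 (-0.90), model 2 (-0.84) and model 8 (-0.73). Its group means were -0.20 ± 0.65 (SD, n = 8) and 0.29 ± 0.79 (SD, n = 6), and an exact two-sided permutation test over 3003 splits gave p = 0.218 (0.291 adjusted over 4 library measures). The summed cytosolic ribosomal protein genes moved with it as well, at 16514 to 43752 CPM in the model and 13536 to 54019 CPM in the control libraries. The mitoribosomal genes are short, with a median exonic length of 2533 bases against 4171 for all genes tested.

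**Figure D2:**
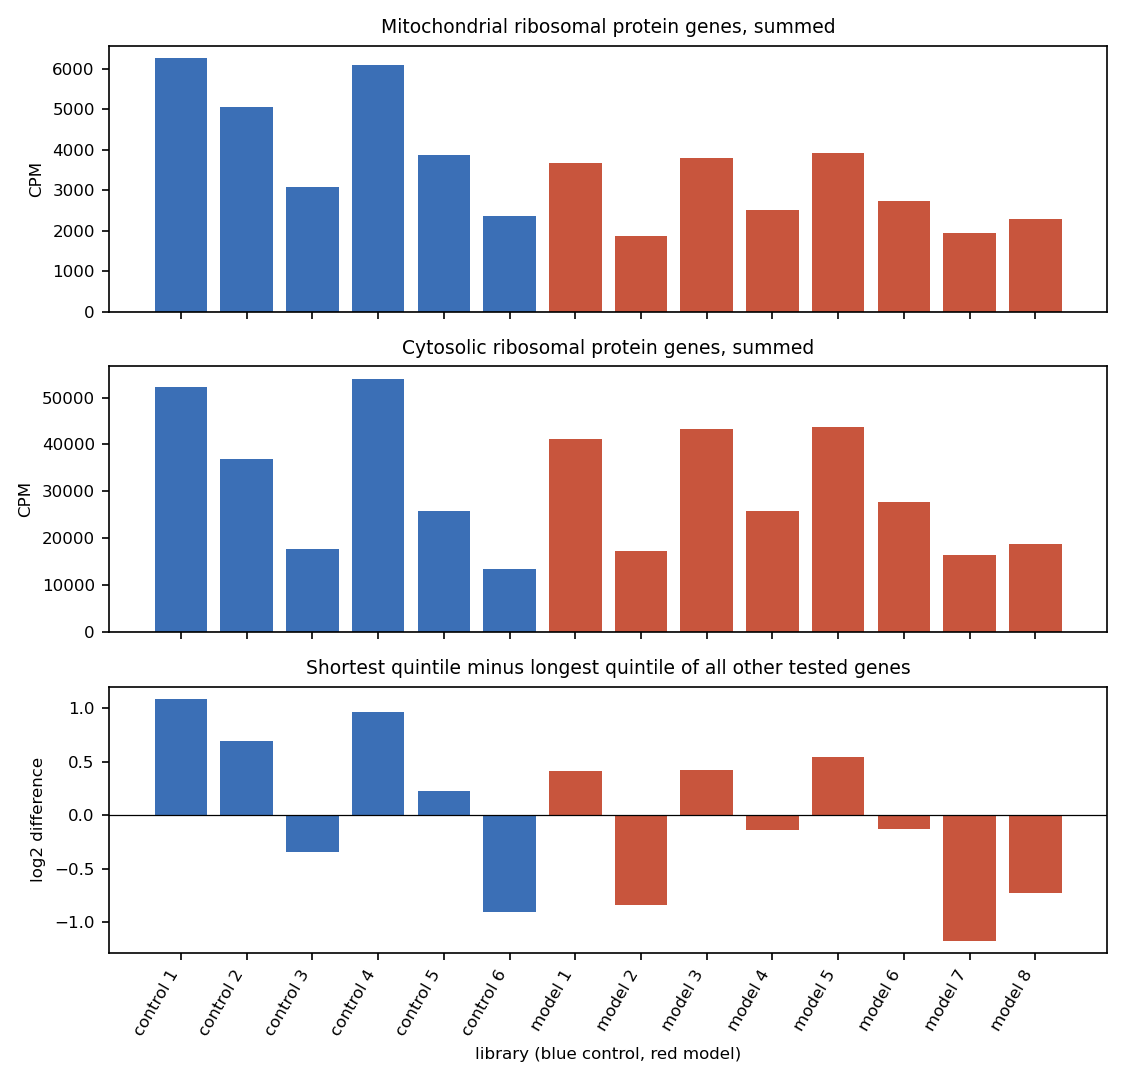
Per library, the summed CPM of the 78 mitochondrial ribosomal protein genes (top), the summed CPM of the cytosolic ribosomal protein genes (middle) and the length measure of all other tested genes in log2 units (bottom). Controls 1, 2 and 4 are high in all 3 panels, and control 6, model 2, model 7 and model 8 are low. In the middle panel control 2 (36885 CPM) lies below models 1, 3 and 5 (41084, 43394 and 43752 CPM), and control 3 (17750 CPM) is low too.

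A fit with an offset for exonic length and GC content in each library kept the direction. It called 43 of the 77 genes lower, against 24.1% of all genes tested, and 0 higher, and 33 of the 34 genes called before were among the 43. The median was -0.48 for the 77 genes and 0.02 for all genes tested. With the offset, every model library lay below every control library in 9 of 77 genes, or 11.7%, close to the 10.7% of all genes tested. Without the offset this held for 1 of 77, against 8.63% of all genes tested. The 9 genes were Mrpl55, Mrpl36, Mrpl46, Mrpl43, Mrpl2, Mrpl49, Mrpl34, Mrpl4 and Mrpl10, the last of which was not called in this fit. In each length quintile, without the offset, the median of the mitoribosomal genes was below that of the whole quintile. The shortest held 36 of them, with a median of -0.71 against -0.23, and the longest held 7, with a median of -0.76 against 0.28.

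Both subunits shared the shift. In the large subunit 23 of 50 tested genes fell (46.0%), with a median of -0.67. In the small subunit 11 of 26 fell (42.3%), with a median of -0.58. Of all genes tested 21.3% fell, and the difference between subunits was not tested. Proteins with a bacterial counterpart had 21 called genes of 46 (45.7%) and a median of -0.65, and those gained in mitochondria 13 of 30 (43.3%) and -0.59. Within a library, the summed CPM of the large subunit over that of the small one was 2.37 to 2.90 in the model and 2.55 to 2.87 in the control, so the groups overlapped in this balance. Exons of 32 tested genes overlap those of another gene. Without a stated strand setting the reads of such pairs cannot be separated. The 45 genes free of any overlap had 19 called lower (42.2%) and the same median, -0.64.

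The largest falls were in Mrps26, Mrpl47, Mrpl15, Mrpl55, Mrpl36 and Mrpl46, in that order. Mrps26 (ENSMUSG00000037740.9) encodes mS26, a small subunit protein without a bacterial counterpart. Its exons overlap those of 4930473A02Rik on the other strand, and what that does to its count was not tested. Mrps26 ranged from 8.68 to 18.2 CPM in the model libraries (median 12.6) and from 16.0 to 46.0 CPM in the controls (median 32.3). The ranges met only through control 6, at 16.0 CPM, which lay below model 5, at 18.2 CPM. It fell by 1.33 on the log2 scale (SE 0.26, adjusted p = 0.000425, edgeR).

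Mrpl47 (ENSMUSG00000037531.9) encodes uL29m, a protein next to the exit of the peptide tunnel. Its CPM in models 1 to 8 was 3.93, 4.68, 6.18, 6.94, 5.09, 7.51, 13.5 and 16.9, and in the controls between 15.3 and 24.5 (median 18.7). Models 7 and 8 stood above the other 6 model libraries, although they were among the lowest in the summed level, and only model 8 reached into the control range. The log2 fold change was -1.24 (SE 0.30, adjusted p = 0.00256, edgeR) and -1.69 without models 7 and 8. Its exons overlap those of Actl6a and Ndufb5 on the other strand, and Ndufb5 (-0.71) was called lower while Actl6a (-0.06) was not.

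Mrpl15 (ENSMUSG00000033845.14) encodes uL15m, a large subunit core protein, and overlaps no other gene. It ran from 30.4 to 65.0 CPM in the model libraries (median 47.5) and from 64.0 to 153 CPM in the controls (median 112). Only model 5 reached above the lowest control, control 6. The fall was to 0.430-fold (log2 -1.22, SE 0.23, adjusted p = 0.000301, edgeR).

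Mrpl55 (ENSMUSG00000036860.15, bL31m) and Mrpl36 (ENSMUSG00000021607.10, bL36m) are small proteins of the bacterial core. Mrpl55 ranged from 8.96 to 21.2 CPM (median 12.7) in the model and from 19.6 to 41.1 CPM (median 31.1) in the control libraries. It fell to 0.441-fold (adjusted p = 0.000372, edgeR), and only model 5 passed the lowest control. Mrpl36 ranged from 9.54 to 27.3 CPM (median 16.8) in the model and from 19.6 to 54.9 CPM (median 44.1) in the controls. It fell to 0.447-fold (adjusted p = 0.00194, edgeR), with models 1, 3 and 5 above control 6. Its exons overlap those of Ndufs6, a complex I subunit, on the other strand (-0.65, adjusted p = 0.171, not called).

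Mrpl46 (ENSMUSG00000030612.7) encodes mL46 of the central protuberance, the part of the large subunit that faces the small one. It ran from 16.7 to 38.1 CPM (median 28.1) in the model and from 27.9 to 89.4 CPM (median 60.6) in the control libraries, and fell to 0.458-fold (adjusted p = 0.00265, edgeR). Controls 3 and 6, at 34.0 and 27.9 CPM, lay within the model range. Its neighbour Mrps11 (uS11m of the small subunit), whose exons overlap it on the other strand, had a log2 fold change of -0.38 (adjusted p = 0.21), which did not pass.

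Mrpl43 (ENSMUSG00000025208.10, mL43), the gene with separate ranges, was chosen for mention after its values were seen. Its models 1 to 8 were at 27.1, 14.7, 23.7, 16.3, 30.1, 23.6, 22.8 and 27.1 CPM, and its controls 1 to 6 at 71.9, 56.5, 34.7, 57.4, 48.9 and 32.3 CPM. The highest model library was 30.1 CPM and the lowest control 32.3 CPM. It fell to 0.461-fold (log2 -1.12, SE 0.21, adjusted p = 0.000366, edgeR). It overlaps on the other strand with Twnk, the helicase that copies mitochondrial DNA, which itself was at 6.47 CPM in the model and 20.7 CPM in the control and fell by 1.67 on the log2 scale (adjusted p = 8.66e-07, edgeR).

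**Figure D3:**
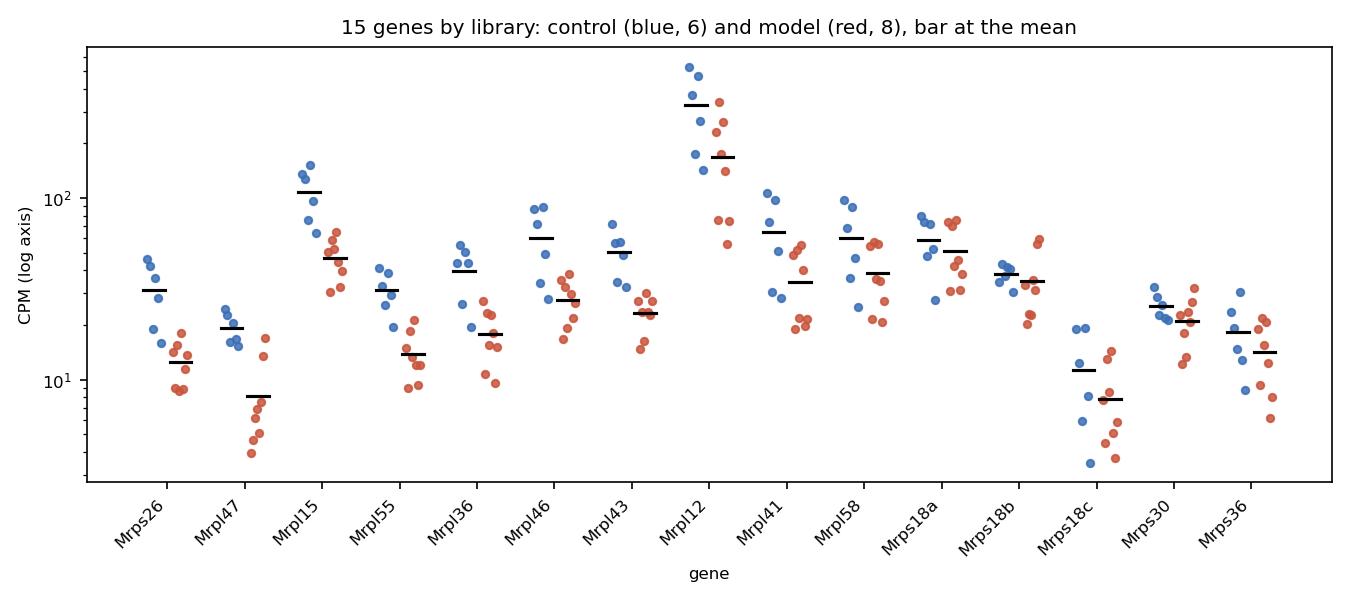
CPM of 15 genes in each library on a log axis, control in blue (6 libraries), model in red (8), with a bar at each mean. The 7 genes on the left were called lower, Mrpl43 alone has separate ranges, and in Mrpl47 and Mrps18b models 7 and 8 are the top model libraries.

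Among the proteins with roles of their own, Mrpl12 was the most abundant. It encodes bL12m of the stalk that recruits translation factors, and has also been found bound to the mitochondrial RNA polymerase. Its models ran from 55.9 to 339 CPM (median 158) and its controls from 142 to 529 CPM (median 317), and model 3, at 339 CPM, lay above 3 of the 6 controls. The log2 fold change of -0.95 (SE 0.40, adjusted p = 0.0604, edgeR) missed the threshold, and it passed in 10 of 24 alternative fits, including the one with the length and GC offset (adjusted p = 0.0152). At the base of the stalk, Mrpl10 (uL10m) fell by 0.48 (adjusted p = 0.0355) and Mrpl11 (uL11m) by 1.09 on the log2 scale (adjusted p = 0.0109, edgeR). Mrpl10 lost its call in 13 of 24 alternative fits, the length and GC offset among them (adjusted p = 0.0585).

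Mrpl41 (mL41) ranged from 19.1 to 55.4 CPM in the model and from 28.1 to 107 CPM in the control libraries, and fell by 0.90 on the log2 scale (SE 0.35, adjusted p = 0.0408, edgeR). That call was lost in 11 of 24 alternative fits, without control 1 (0.122) and without models 7 and 8 (0.133) among them. Mrpl58 (mL62, a former free-standing release factor that can rescue stalled mitoribosomes) ran from 20.9 to 57.3 CPM and from 25.0 to 98 CPM. Its log2 fold change was -0.65 with an adjusted p of 0.101, not called.

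Mammals hold 3 proteins derived from the bacterial S18, and none of their genes was called. Mrps18a was at 51.0 ± 19.1 CPM in the model (SD, n = 8) and 58.9 ± 20 CPM in the control (SD, n = 6), a log2 fold change of -0.21. Mrps18c was at 7.86 ± 3.96 and 11.4 ± 6.69 CPM, a log2 fold change of -0.53. Mrps18b was at 35.1 ± 15.1 and 38.1 ± 4.90 CPM, a log2 fold change of -0.12. In Mrps18b models 7 and 8, at 56.2 and 59.5 CPM, lay above every control library, and the remaining 6 models lay between 20.3 and 35.2 CPM. With the length and GC offset its value turned to 0.09.

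Mrps30 (mL65) was at 21.2 ± 6.61 CPM in the model and 25.5 ± 4.51 CPM in the control, with models 7 and 8 again on top (26.8 and 31.9 CPM) and no call (adjusted p = 0.334, edgeR). In 7 of the 77 genes both model 7 and model 8 lay above the other 6 model libraries, and in 14 genes both lay below them, so these libraries did not move all of the genes in one direction. Mrps36, the gene outside the ribosome, was at 14.2 ± 6.12 and 18.3 ± 7.92 CPM, a log2 fold change of -0.37 that did not pass (adjusted p = 0.359, edgeR).

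Around the peptidyl transferase centre, where the peptide bond forms, Mrpl2 (uL2m, -0.83) and Mrpl3 (uL3m, -0.51) fell, whereas Mrpl16 (uL16m, -0.26) and Mrpl27 (bL27m, -0.62) were not called. Along the peptide tunnel, Mrpl4 (uL4m, -0.74), Mrpl22 (uL22m, -0.90) and Mrpl24 (uL24m, -0.68) fell. Not called there were Mrpl23 (uL23m, -0.68), Mrpl17 (bL17m, -0.40) and Mrpl45 (mL45, which anchors the mitoribosome to the inner membrane, -0.28). In the central protuberance, Mrpl48 (mL48, -0.76) and Mrpl18 (uL18m, -0.81) fell, and Mrpl40 (mL40, -0.56) and Mrpl38 (mL38, -0.04) were not called. Mrpl44 (mL44), which has a fold related to RNase III, fell by 0.74 on the log2 scale. Each of these 3 regions held called and uncalled genes. Mrpl3 lost its call in 8 of 24 alternative fits, Mrpl48 in 5, Mrpl24 in 4 and Mrpl2 in 1.

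In the small subunit, Mrps12 (uS12m), a protein of the decoding site, was not called (-0.59), and neither were Mrps5 (uS5m, -0.27) and Mrps24 (uS3m, -0.41) at the mRNA channel. Mrps7 (uS7m), the most abundant small subunit gene by CPM, at 93.1 ± 31.9 CPM in the model and 136 ± 50.9 CPM in the control, had a log2 fold change of -0.54 that did not pass. Mrps10, Mrps14, Mrps16, Mrps17, Mrps23, Mrps34 and Mrps35 fell by 0.75 to 1.08 on the log2 scale. Over the 24 alternative fits Mrps14 lost its call in 10, Mrps16 in 9, and Mrps10 and Mrps23 in 1 each, the one with the replicate number as a block. Of the 7, Mrps34 (mS34), which the small subunit needs to be stable, ran at 29.7 ± 7.75 CPM against 57.6 ± 21.0 CPM (adjusted p = 0.00299, edgeR) and was called in every one of the 24 alternative fits.

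At the other end stood the genes that hardly differed. Mrpl39 (mL39) was the steadiest gene, at 31.9 ± 2.10 CPM in the model and 36.7 ± 1.49 CPM in the control, with a log2 fold change of -0.20 (SE 0.13, adjusted p = 0.22, edgeR). Mrpl38 (-0.04), Mrpl52 (0.08) and Mrpl33 (0.25) were the values nearest to or above 0. Mrpl52 turned to -0.14 with library totals, and Mrpl33, at 6.87 and 5.81 CPM one of the lowest, turned to -0.02 without models 3 and 4.

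**Figure D4:**
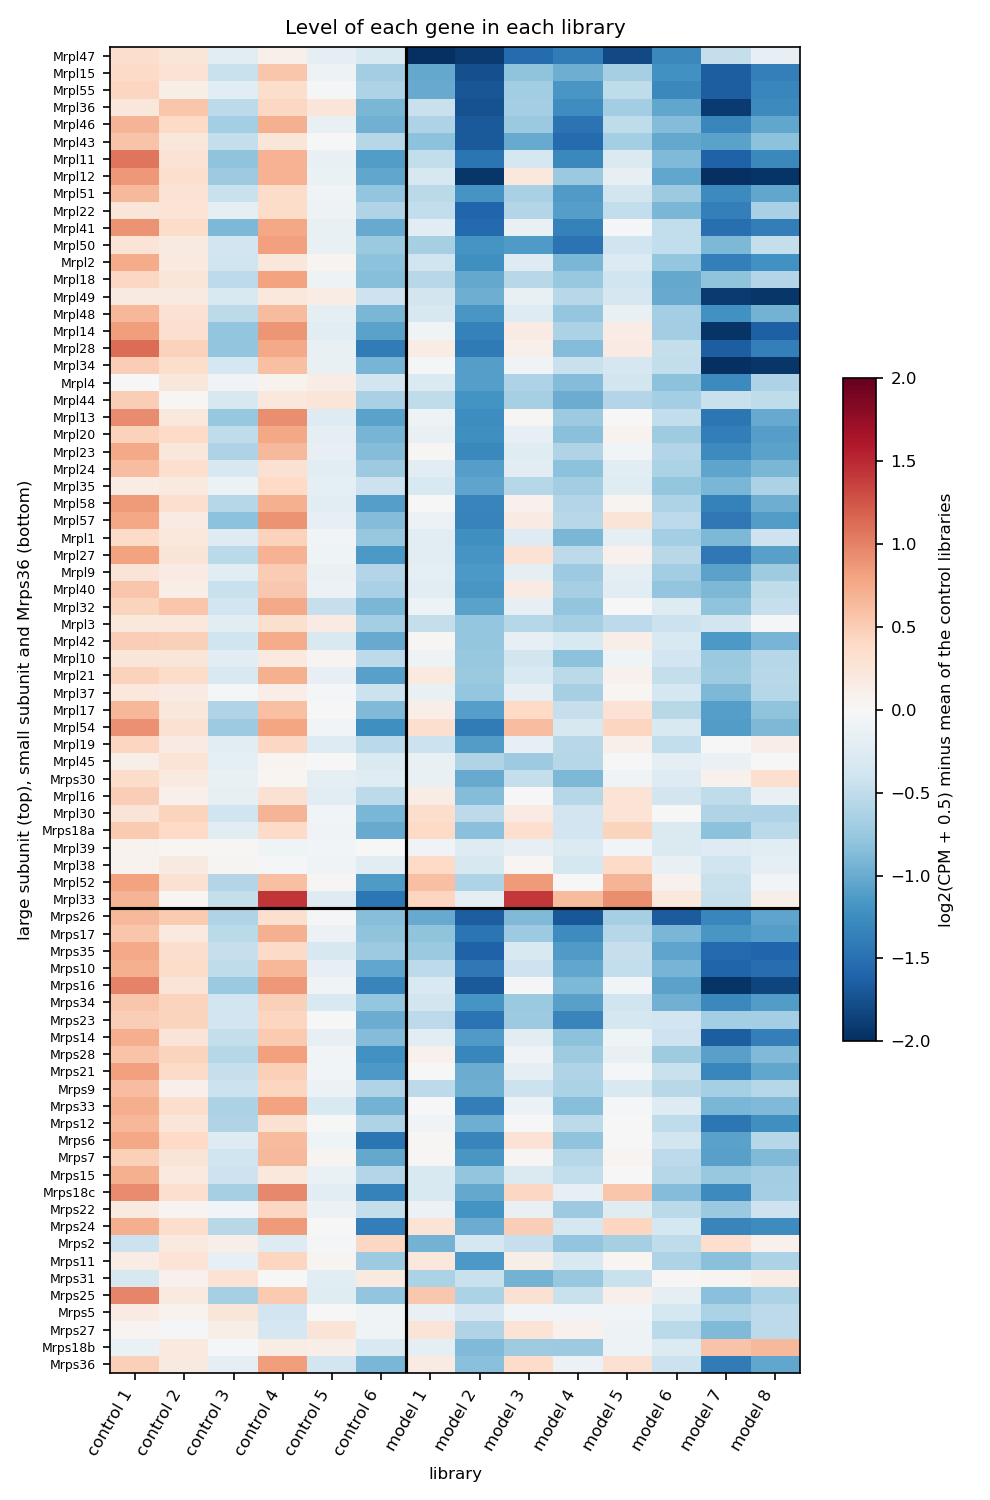
Each of the 77 tested genes (rows) in each of the 14 libraries (columns), as log2(CPM + 0.5) minus the mean of the control libraries, red above and blue below that mean. Controls 1, 2 and 4 are mostly red and controls 3 and 6 mostly blue. The lowest value of a gene fell most often in model 2 (31 genes) and model 7 (28 genes), followed by control 6 (8 genes).

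The order of the genes by level was alike in both groups. Per kilobase of exonic length, the mean level in the controls ran from 0.793 (Mrpl33) to 213 CPM per kb (Mrpl12), with a median of 18.2, and in the model the median was 12.6 CPM per kb. Spearman's rho between the 2 groups' levels per kb was 0.975 across the 77 genes, which share their libraries and lengths and are not independent replicates. Mrpl14 (uL14m, 103 CPM per kb), Mrps21 (bS21m, 97.7) and Mrpl28 (bL28m, 92.3) followed Mrpl12 in the controls. These 3 differed by less than their spread over the controls.

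Promoter sequence was looked at because the genes leaned the same way. RefSeq windows on GRCm38.p6 were matched by symbol for 69 of the 78 genes (75 windows), and the 250 bases before each start were searched on both strands for 4 short motifs of factors known from nuclear mitochondrial genes. These coordinates are of another build than the one the reads were aligned to. The motifs were TGCGCA (the core of the NRF1 site), CCGGAAG (bound by ETS factors such as GABP), AANATGGC (YY1) and CACGTG (the E-box of Myc with Max). TGCGCA and CACGTG read the same on both strands, and none of the motifs contains another. The NRF1 core was in 25.3% of the windows, against 10.7% of the windows of tested genes and 6.43% of all windows. The ETS motif was in 24.0%, against 12.9% and 6.91%. The YY1 motif was in 9.33%, against 4.43% and 3.91%, and the E-box in 9.33%, against 8.28% and 6.02%. These are shares of windows and not of genes. The 7 windows with the E-box came from 5 tested genes, as overlapping windows of Mrpl2 hold the same match.

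Genes with and without a motif had close medians. Of 18 tested genes with the NRF1 core 8 were called lower (median -0.62), and of 50 without it 22 (median -0.63). For the ETS motif these were 9 of 17 (median -0.65) and 21 of 51 (median -0.62). A match is a description of the letters and not a site shown to be bound.

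The 100 bases before the start are given for 4 genes, because they show the range from no motif to several: Mrpl43 with separate ranges at chr19:45006443-45006542 (- strand), Mrps26 with the largest fall at chr2:130563657-130563756 (+ strand), Mrpl22 at chr11:58171564-58171663 (+ strand) and Mrpl12, the most abundant, at chr11:120484537-120484636 (+ strand). They are written 5′ to 3′ on the gene's strand, with motif matches in capitals.
Mrpl43: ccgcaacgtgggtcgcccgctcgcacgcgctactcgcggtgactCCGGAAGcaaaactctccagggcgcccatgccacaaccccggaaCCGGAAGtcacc
Mrps26: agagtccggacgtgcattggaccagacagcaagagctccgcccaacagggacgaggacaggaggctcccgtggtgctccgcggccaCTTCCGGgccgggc
Mrpl22: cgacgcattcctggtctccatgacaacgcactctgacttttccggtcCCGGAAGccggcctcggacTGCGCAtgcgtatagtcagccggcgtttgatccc
Mrpl12: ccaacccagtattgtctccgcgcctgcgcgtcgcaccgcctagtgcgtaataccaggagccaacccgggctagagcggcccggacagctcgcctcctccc
Mrpl43 holds the ETS motif 2 times, 56 to 50 and 12 to 6 bases before the start. Mrps26 holds it once on the other strand (CTTCCGG), 14 to 8 bases before the start. Mrpl22, which fell to 0.535-fold, has the ETS motif and the NRF1 core. Mrpl12 has none of the 4.

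The regulators of these genes did not move together. Of 12 tested regulator genes 6 rose and 2 fell. Myc, a driver of ribosome and mitochondrial gene expression, rose from 1.48 to 4.71 CPM in the controls (median 2.18) to 31.5 to 103 CPM in the model (median 62.4), a log2 fold change of 4.59 (SE 0.36, adjusted p = 1.19e-08, edgeR), and the ranges were far apart. Esrra, the orphan receptor that works with PGC-1α, fell by 1.30 (adjusted p = 0.000143, edgeR), at 10.0 to 24.2 CPM against 28.8 to 51.2 CPM. Ppargc1a, which encodes PGC-1α, was at 0.596 to 1.94 CPM against 0.955 to 3.56 CPM and fell by 0.94 (adjusted p = 0.0426, edgeR), a call lost in 13 of 24 alternative fits. Nrf1 (0.25, adjusted p = 0.398) and Gabpa (0.00, adjusted p = 0.999), which encode the factors of the NRF1 and ETS motifs, were not called, while Gabpb1, the partner of Gabpa, rose by 1.33 (adjusted p = 0.000212, edgeR).

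The genes that build and serve the mitoribosome were lower or not called in nearly every case. In the list of assembly and rRNA modification factors 18 of 27 tested genes fell (66.7%, against 21.3% of all genes tested). None rose, against 26.6% of all genes tested, and the median was -0.88. Mrm2, which methylates the large mitochondrial rRNA, went from 5.58 to 24.5 CPM in the controls (median 11.6) to 0.320 to 3.21 CPM in the model (median 2.14). The ranges were apart, and it fell by 2.78 on the log2 scale (SE 0.40, adjusted p = 2.04e-05, edgeR). Ngrn (-1.74), Mterf4 (-1.58), Mettl17 (-1.57) and Rbfa (-1.17) also fell, each needed for the mitochondrial rRNAs or for subunit assembly.

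Of 18 translation factors 11 fell (61.1%, against 21.3% of all genes tested) and 0 rose (against 26.6%), with a median of -0.76. Mtif3, an initiation factor, was at 4.45 to 14.1 CPM in the model and 33.0 to 64.5 CPM in the controls and fell by 2.19 (SE 0.27, adjusted p = 2.88e-06, edgeR). The release factor gene Mtrf1 (-1.86) and Taco1 (-1.28), the activator of COX1 translation, fell as well. The elongation factor genes Tufm (0.20), Gfm1 (0.35) and Tsfm (-0.04) were not called. Of 20 aminoacyl-tRNA synthetase and amidotransferase genes of mitochondria 8 fell and 1 rose (median -0.24). Nars2 had the largest fall among those of at least 5 CPM (-1.36, adjusted p = 0.000339, edgeR).

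Of 12 tested genes for transcription and copying of mitochondrial DNA 8 fell (66.7%, against 21.3% of all genes tested). None rose, against 26.6% of all genes tested, and the median was -1.06. In these last lists of assembly, translation and DNA factors, 0 genes were higher at an unadjusted p under 0.05, and DESeq2 and limma-voom called 0 higher as well. Over the 24 alternative fits 1 assembly gene was called higher without models 3 and 4, and 1 translation factor without control 6. Polg2, the accessory subunit of the DNA polymerase, fell by 2.36 (adjusted p = 2.16e-05, edgeR), and Polrmt, the RNA polymerase, by 1.19 (adjusted p = 0.0125). Tfam, which packs and transcribes mitochondrial DNA, was at 14.9 to 31.7 CPM in the model and 39.3 to 69.4 CPM in the control libraries, with separate ranges, and fell by 1.20 (SE 0.21, adjusted p = 0.000161, edgeR). Of the 5 mitoribosomal proteins with other symbols, Chchd1 (mS37) fell by 0.96 (adjusted p = 0.0368, edgeR), a call lost in 10 of 24 alternative fits. Dap3 (mS29, 0.08), Ptcd3 (mS39, -0.30), Gadd45gip1 (mL64, -0.30) and Aurkaip1 (mS38, -0.59) were not called.

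**Figure D5:**
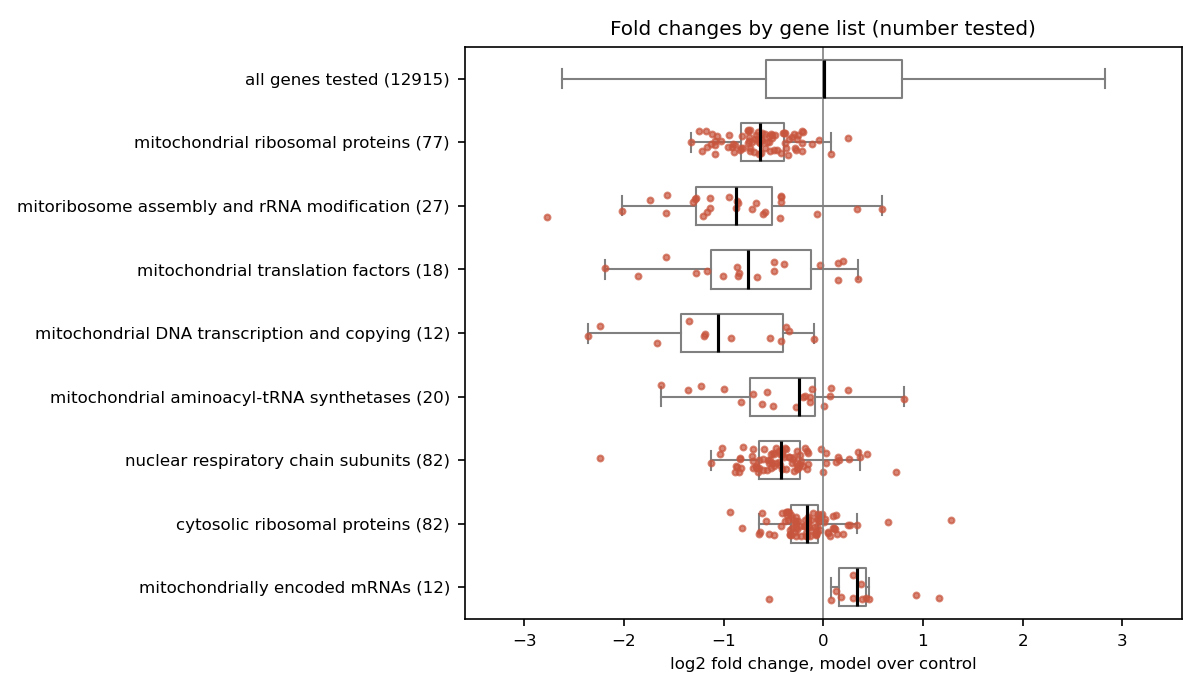
Log2 fold changes by list, with the median as a black line, the box from the lower to the upper quartile, and red points for single genes (not drawn for all 12915 genes). The mitochondrial ribosomal proteins have a median of -0.64, the cytosolic ribosomal proteins one of -0.16 and the mitochondrially encoded mRNAs one of 0.34.

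The mRNAs that the mitoribosome translates were not called lower. Of 12 tested mitochondrially encoded mRNAs 2 rose (16.7%, against 26.6% of all genes tested) and 0 fell (against 21.3%), with a median of 0.34. The most abundant, mt-Co1, was at 24700 to 117000 CPM in the model and 21400 to 33200 CPM in the control libraries and rose by 0.93 (adjusted p = 0.0117, edgeR), with overlapping ranges. The length and GC offset raised the count to 9. All mitochondrially encoded genes took 11.5% ± 4.36 of the counts in the model (SD, n = 8) and 7.60% ± 1.04 in the control (SD, n = 6), an exact two-sided permutation p of 0.029 (0.116 adjusted over 4 library measures), with model 3 at 20.8% and model 4 at 14.4%. This share includes the mitochondrial rRNAs. The mitochondrially encoded mRNAs alone took 9.19% ± 2.8 in the model (SD, n = 8) and 7.04% ± 0.891 in the control (SD, n = 6), an exact two-sided permutation p of 0.0796 (0.159 adjusted). Selection for poly(A) tails and copies of mitochondrial sequence in the nucleus limit such counts.

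Among 82 tested cytosolic ribosomal protein genes 2 rose (2.44%, against 26.6% of all genes tested) and 0 fell (against 21.3%). Their median was -0.16, or 0.00 with the offset. Their fitted values were below 0 in 65 of 82 (79.3%), against 49.6% of all genes tested, and the difference from the mitoribosomal genes was not tested. At an unadjusted p under 0.05 1 of them was lower, and 1 to 7 were called higher and 0 to 4 lower over the 24 alternative fits. Rpl7a, which rose most among those the naming rule allows (0.65, adjusted p = 0.0491, edgeR), lost its call in 17 of 24. These genes have many processed copies, so their counts can be split. Of 82 nuclear subunits of the respiratory chain 9 fell (11.0%, against 21.3% of all genes tested) and 1 rose (1.22%, against 26.6%), with a median of -0.43. The largest fall at 5 CPM or more was in the complex I gene Ndufa8 (-1.13, adjusted p = 0.00389, edgeR). The number of these subunits called lower ran from 2 to 42 over the alternative fits. The gene that rose was Sdha of complex II (0.73, adjusted p = 0.0221, edgeR), a call lost in 6 of 24 alternative fits. In the list of mitochondrial content, which holds import, fusion and channel genes, 8 of 18 fell (44.4%, against 21.3%) and 1 rose (5.56%, against 26.6%). Tomm22, an import receptor, fell by 1.11 (adjusted p = 0.00215) and Hspa9, the matrix chaperone, rose by 0.87 (adjusted p = 0.00243, edgeR).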

How the data were processed

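Liver RNA-seq of 8 model and 6 control samples was used. The authors deposited 1 table of raw counts for each sample, from reads aligned to GRCm39 by HISAT2, per the submitters' processing notes. Not given in the sources used here are the version of HISAT2, the counter, the use of strand and the release of the gene annotation. The 5 summary lines that name no gene held 27.4% to 45.6% of the entries of a library and were left out.

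Groups came from the labels. The test was edgeR 4.0.16 under R 4.3.3 (filterByExpr, TMM factors, robust quasi-likelihood fit, all 14 libraries, group as the only term, Benjamini-Hochberg adjustment over 12915 genes). CPM used the TMM factors, and each SE is the absolute log2 fold change over the square root of F. The fit was tested on simulated data. Exonic length, GC content and exon overlaps came from GENCODE vM21 (another build, GRCm38), matched by identifier for 99.9% of tested genes. Chi-square per degree of freedom was 23.3 or more in each of 43 pairs of libraries of a group, so none was counted as a repeat.

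The naming rule took the 6 called genes with the most negative and the 6 with the most positive fold change (mean of 5 CPM or more in either group). It also took 8 genes fixed by name (Mrpl12, Mrpl41, Mrpl58, Mrps18a, Mrps18b, Mrps18c, Mrps30, Mrps36). From each other mitochondrial list it took the called gene with the largest rise and fall at that level, and 5 regulators were added. Some genes from these lists have only a fold change and an adjusted p here. No mitochondrial ribosomal protein gene was called higher. Other list genes were named after their values were seen. The genes and the 18 lists were chosen with earlier results of these data known. The 24 alternatives were DESeq2 1.42.0, limma-voom (limma 3.58.1), 3 other scalings, no filter, the offset, the replicate number as a block, each library left out, and models 3 and 4 or models 7 and 8 left out.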

Additional observations from a re-analysis of the deposited data

Results flagged for a closer look

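In 40 checks of the values used above for a library far from the rest of its group, 1 stood out. Ribosomal RNA took 6.94% of the counts in control 2, against 0.435% to 1.97% in the other 5 controls. This share counts mitochondrial as well as cytosolic rRNA genes, so it overlaps the share of mitochondrially encoded genes. Chance flags about 1 in 20 groups. Control 2 is among the libraries with a high summed level of the mitochondrial ribosomal protein genes. Without control 2, 23 of these genes were called lower, against 19.1% of all genes tested. The group means of the ribosomal RNA share were 2.96% ± 1.88 (SD, n = 8) in the model and 2.15% ± 2.41 (SD, n = 6) in the control. An exact two-sided permutation test gave p = 0.485 (0.485 adjusted over 4 library measures). The cytosolic and mitochondrial rRNA genes were not tested apart.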

How the results depend on the processing

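In all 24 alternatives 0 of the genes were called higher, and the median log2 fold change was between -0.85 and -0.47. The number called lower was 61 with library totals (30.6% of all genes tested were lower in that fit), 51 with upper-quartile factors (27.2%) and 19 with the replicate number as a block (18.5%). It was 23 to 54 when 1 library was left out (54 without control 6), where 18.8% to 21.9% of all genes tested were lower. Of the 34 genes called lower, 18 were called in every alternative. The block rests on a shared number only: same-numbered libraries deviated together with correlations of 0.363, -0.282, -0.342, -0.005, -0.037 and -0.103, which does not pair them. Without models 3 and 4, 30 were lower (20.5% of all genes tested). These are the model libraries with the most mitochondrially encoded and ribosomal RNA, shares that both count the mitochondrial rRNAs. Without models 7 and 8, 25 were lower (20.9%).

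Values near 0 changed sign, and the cause was not tested. Gabpa went to -0.042 with DESeq2 factors and with the DESeq2 test, -0.171 with upper-quartile factors, -0.224 with library totals, -0.077 with limma-voom, -0.022 with the offset, -0.386 with the block and -0.349 without models 7 and 8. It was between -0.171 and 0.20 without 1 library. Mrpl52 went to -0.059 with upper-quartile factors, -0.142 with library totals and -0.013 without models 3 and 4, and was between -0.043 and 0.257 without 1 library. Mrps18b went to 0.086 with the offset and 0.054 without models 3 and 4, where Mrpl33 went to -0.019. The precision is limited by 6 to 8 libraries a group and by their differing length measure.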

Other observations

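Stress genes of mitochondria, a list of chaperone regulators, proteases and targets of the integrated stress response, had 2 of 14 tested genes higher and 2 lower (median 0.08). Each count is 14.3% of the list, while 26.6% of all genes tested were higher and 21.3% lower. Ddit3, a stress-induced transcription factor, was at 9.74 to 54.0 CPM in the model libraries and 2.08 to 6.75 CPM in the controls. It rose by 2.69 on the log2 scale (adjusted p = 3.73e-05, edgeR), with separate ranges. Lonp1, a matrix protease, rose by 0.80 (adjusted p = 0.0034, edgeR). Oma1, a protease of the inner membrane, fell by 0.61 (adjusted p = 0.0172, edgeR), a call lost with the replicate number as a block (0.0759) and without models 7 and 8 (0.0554). Fgf21, a liver hormone that answers to mitochondrial stress, fell by 2.69 (adjusted p = 0.00086, edgeR) from a level of 1.76 ± 0.802 CPM (SD, n = 6).

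Of the 6 pseudogene rows left out of the set, 3 had enough counts to be tested. Their log2 fold changes were 0.26 for Mrpl27-ps, -0.22 for Mrpl23-ps1 and -0.24 for Mrpl48-ps, with adjusted p between 0.56 and 0.713 (edgeR), and none was called.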
